A study of Mus musculus with 8 samples.

Results

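Members of the tumour necrosis factor (TNF) superfamily were examined in granulocyte-macrophage progenitors, marrow cells from which neutrophils and monocytes form. The 8 genes, Eda2r, Tnfsf4, Fas, Tnfrsf10b, Tnfrsf22, Tnfrsf23, Tnfrsf1a and Tnfrsf1b, were chosen by symbol as death receptors, decoy receptors and ligands, out of 23131 genes in the table. All 8 passed the filter on low values, a mean of at least 10 over the libraries, and were among the 16688 genes tested; Eda2r and Tnfsf4 passed it through the RH2hKO libraries alone. RH2hKO mice carried floxed Rnaseh2b on both alleles and Vav-Cre, a recombinase that is active throughout the blood system from early haematopoiesis on. RH2hWT mice were littermates without Cre, and all mice were C57BL/6. Rnaseh2b encodes a subunit of RNase H2, an enzyme that takes misplaced ribonucleotides out of DNA and cuts RNA paired with DNA. Each group had 4 libraries of polyadenylated RNA, 1 a mouse, called RH2hKO replicates 5 to 8 and RH2hWT replicates 1 to 4. The sources used here do not give the age of the mice.

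Ligands of the TNF superfamily are mostly membrane-bound trimers that signal to a neighbouring cell by clustering receptors of the TNF receptor superfamily. Death receptors such as Fas carry an intracellular death domain that recruits Fadd and caspase-8, while other receptors recruit TRAF adaptors and switch on NF-kB; decoy receptors bind ligand but pass on no death signal. In human cells FAS, TNFRSF10B and EDA2R are known target genes of p53, the transcription factor that responds to DNA damage.

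The 8 libraries held between 28352720 and 45655518 reads assigned to genes. Rnaseh2b, the check of the genotype, had normalised counts of 117.9, 127.5, 75.9 and 95.3 in RH2hKO replicates 5 to 8, against 2288, 2470, 1249 and 1207 in RH2hWT replicates 1 to 4. A normalised count is the number of reads on a gene after the authors' scaling for library size. Markers of the sorted cells were abundant in both groups, with Mpo at 739426 ± 40702 in RH2hKO and 806205 ± 35330 in RH2hWT (SD, n = 4 each), and none of 12 such markers passed the test. Their summed level did not overlap between the groups, at 1164770 to 1223810 in RH2hKO and 1285140 to 1398290 in RH2hWT. Among 11 lists of other cell types, the summed markers of megakaryocytes, of stem and multipotent progenitors, and of stromal and endothelial cells also did not overlap, all higher in RH2hKO, and the other 8 overlapped. Single markers in the overlapping lists were called nonetheless. Higher in RH2hKO were Hbb-bs (erythroid, log2 fold change 3.97), Ccr2 and Cd68 (monocyte and macrophage, both 0.48), and Flt3 and Bst2 (dendritic cell, 1.10 and 0.60). Lower in RH2hKO were Gzmb (mast cell and basophil, -2.62), Ear1 (-2.28) and Ear2 (-2.42, both eosinophil). RH2hKO replicate 8 had the highest sum of its group for erythroid, megakaryocyte, mast cell and basophil, eosinophil, mature neutrophil, T and NK cell, and stem and multipotent progenitor markers, and the lowest for dendritic cell and B cell markers. RH2hWT replicate 1 had the lowest sum of its group for granulocyte-macrophage progenitor, erythroid, mast cell and basophil, T and NK cell, and B cell markers, and the highest for dendritic cell and for stromal and endothelial markers.

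Of the 8 genes, 3 rose in RH2hKO progenitors: the receptors Eda2r and Tnfrsf10b and the ligand Tnfsf4. A gene was called when limma on log2(normalised count + 1) gave a Benjamini-Hochberg adjusted p below 0.05 over all genes tested, and 1.19% of all genes were called higher in that way. None of the 8 was called lower (0.21% of all genes were), and 5 were not called. Every RH2hKO library lay above every RH2hWT library for 5 of the 8, the 3 called genes plus Tnfrsf22 and Tnfrsf1b, against 3.99% of all genes tested, and none of the 8 had every RH2hKO library below every RH2hWT library, as 3.42% of all genes did. The median log2 fold change of the 8 was 0.54, against -0.01 over all genes tested, and 7 of the 8 were above 0. The 8 were chosen with earlier results of these data known, so these counts and this median describe them and test nothing. The 3 calls held in each of the 19 alternative settings run.

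**Figure D1:**
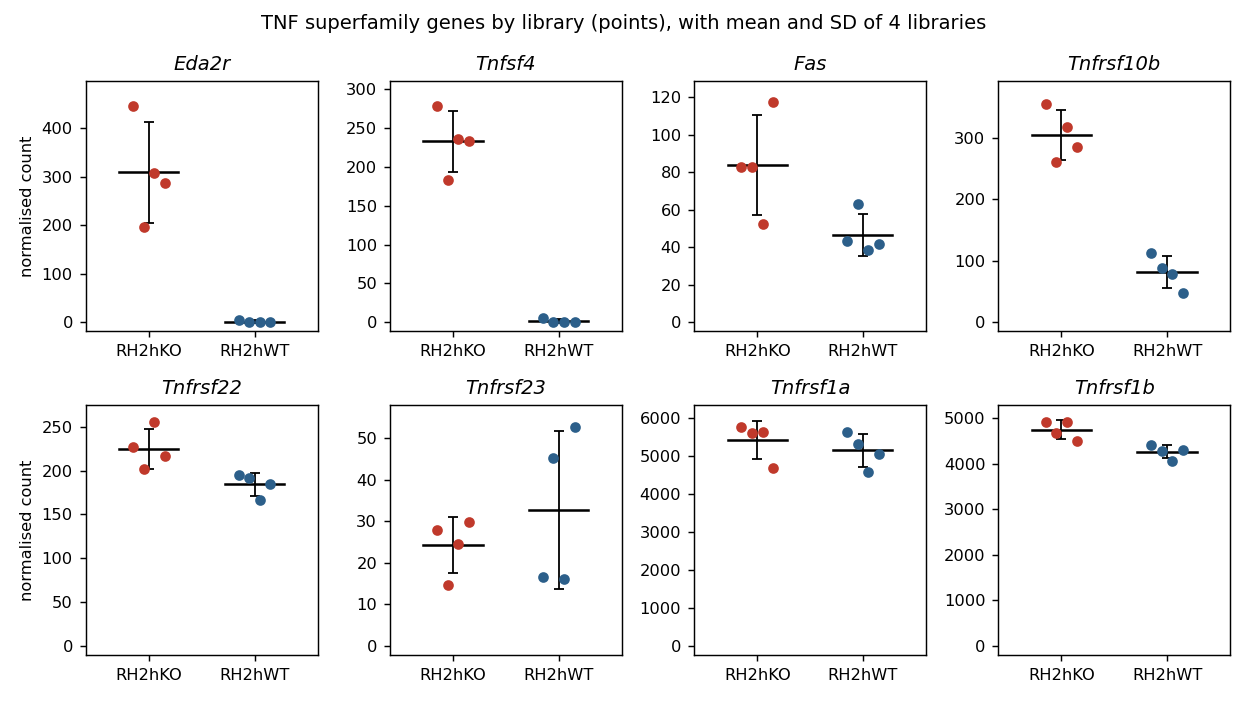
Normalised counts (vertical axes, linear, each with its own scale) of the 8 TNF superfamily genes in RH2hKO (left, red) and RH2hWT (right, blue) libraries; points are libraries, bars the mean and whiskers the SD of 4 libraries. Eda2r and Tnfsf4 sit at or close to 0 in RH2hWT, Tnfrsf10b is higher in RH2hKO with no overlap, and Tnfrsf1a, Tnfrsf1b and Tnfrsf22 differ by little beside their level.

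Eda2r (ENSMUSG00000034457) encodes the ectodysplasin A2 receptor, a TNF receptor without a death domain, and lies on the minus strand of chromosome X from 97333840 to 97377216 (mm10). The first sequence is the window from 250 bases before to 50 bases after its start in RefSeq (GRCm38.p6, chrX:97377160-97377459, minus strand), shown because this gene had a clear signal in RH2hKO and next to none in RH2hWT. The second is the same window of Fas (chr19:34290409-34290708, plus strand), a death receptor that was expressed in both groups, shown for comparison. Capitals mark the core promoter motif TATAAA, searched on both strands.
Eda2r: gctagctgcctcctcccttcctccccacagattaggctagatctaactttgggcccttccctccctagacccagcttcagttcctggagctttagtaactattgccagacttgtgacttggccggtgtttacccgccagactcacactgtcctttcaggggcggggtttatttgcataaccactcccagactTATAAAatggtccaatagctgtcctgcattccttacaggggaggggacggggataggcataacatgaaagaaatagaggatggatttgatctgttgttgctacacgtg
Fas: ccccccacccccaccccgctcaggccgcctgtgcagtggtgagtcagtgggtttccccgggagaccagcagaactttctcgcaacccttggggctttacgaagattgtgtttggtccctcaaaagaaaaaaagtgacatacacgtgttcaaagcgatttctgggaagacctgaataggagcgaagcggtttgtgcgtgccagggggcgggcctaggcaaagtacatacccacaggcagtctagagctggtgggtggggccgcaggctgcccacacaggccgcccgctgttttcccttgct
The Eda2r window held TATAAA once, on the gene's strand, with its first base at position -58 from the start, and the Fas window held none. Either strand of 13.6% of the 32851 RefSeq promoter windows of that length held the motif, and the gene's strand of 8.32% did. Whether the motif at -58 acts in the Eda2r promoter was not tested. Eda2r had 5 CG dinucleotides and Fas 14, where the median over all windows was 7. RefSeq windows were matched for 5 of the 8 genes. Of the other matched genes, Tnfrsf1a had 11, Tnfrsf1b 13 and Tnfrsf23 9 CG dinucleotides. Tnfrsf23 held the motif on the opposite strand with its first base at -158, and Tnfrsf1a and Tnfrsf1b held none. The half-site consensus of p53, which reads the same on both strands, was found in 8.36% of all windows and in none of these 5, which says only that those letters are not in these windows.

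Eda2r had normalised counts of 447.4, 195.6, 307.6 and 287.8 in RH2hKO replicates 5 to 8, against 4.7, 0, 0 and 0 in RH2hWT replicates 1 to 4. Every RH2hKO library stood far above every RH2hWT library, and a single RH2hWT library had any read. In whole reads, the RH2hKO libraries held 497, 201, 312 and 299, and RH2hWT replicate 1 held 6. RH2hWT replicate 1 was also the deepest library, with 45655518 reads assigned to genes. RH2hWT replicates 2 to 4 had 37580789, 28352720 and 39165032, and the part of depth in this difference was not tested. The sum of 1309 reads in RH2hKO (95% exact Poisson interval 1239 to 1382) stood against 6 in RH2hWT (2.20 to 13.1), which at equal depth is a ratio of 225 (counting interval 103 to 614). Such intervals take in counting error alone, because the reads of a group are pooled and the variation between mice is left out. PCR copies of a molecule are also not independent. RH2hWT replicate 1 was the only control with reads, so leaving it out can only raise the ratio. The remaining controls held 0 reads. Taking 3 reads over the group as the limit that a count of 0 allows, the ratio was then at least 314. That value is no lower limit for all controls, where the counting interval starts at 103. The fitted log2 fold change was 7.59 ± 0.56 (SE; limma, adjusted p = 3.05e-06) and depends on the pseudocount, from 5.68 with a pseudocount of 5 to 8.37 with 0.5. In these bulk samples a larger number of cells with the transcript and more transcript per cell cannot be told apart.

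Its ligand gene Eda, which makes the ectodysplasin isoforms, was low in both groups and was not called. Eda had 20.7, 37, 17.7 and 26 in RH2hKO, against 10.2, 24.6, 10 and 19.5 in RH2hWT, and the groups overlapped (log2 fold change 0.67, 95% confidence interval -0.26 to 1.61; limma, adjusted p = 0.552). The isoforms of Eda, of which one binds Eda2r and another binds the receptor Edar, cannot be separated in counts per gene. Edaradd, the adaptor of Edar, ranged over 6.3 to 33.1 in RH2hKO and 10.2 to 32.5 in RH2hWT and was not called.

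Tnfsf4 (ENSMUSG00000026700), on the plus strand of chromosome 1 from 161395409 to 161418410, encodes OX40 ligand, which costimulates T cells through their receptor OX40. Its normalised counts were 279.1, 183, 235.6 and 233.9 in RH2hKO replicates 5 to 8, against 4.7, 0, 0 and 0 in RH2hWT replicates 1 to 4. As for Eda2r, no group overlapped the other and the only control reads were in RH2hWT replicate 1, with 6 reads of each gene. The RH2hKO libraries held 310, 188, 239 and 243 reads. Their sum of 980 (920 to 1043) against 6 (2.20 to 13.1) in RH2hWT gave a ratio of 168 at equal depth (counting interval 77.1 to 460). Without RH2hWT replicate 1, again the only control with reads, the ratio was at least 235 by the same limit. That value is no lower limit for all controls, where the counting interval starts at 77.1. The fitted log2 fold change was 7.23 ± 0.56 (SE; limma, adjusted p = 4.2e-06), and 7.85 without RH2hWT replicate 1, where that of Eda2r was 8.22.

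Outside haematopoietic cells, OX40 ligand is known from activated endothelium, so the levels of endothelial and stromal markers are given beside it. Of 6 such markers in the table, 1 was abundant enough to be tested and it was called: Pecam1, an adhesion molecule that blood progenitors also carry, had 4908 ± 346 in RH2hKO and 3786 ± 332 in RH2hWT (SD, n = 4 each; log2 fold change 0.38; limma, adjusted p = 0.0324). The summed level of the 6 was 4664.4 to 5421.5 in RH2hKO and 3434.7 to 4227.9 in RH2hWT, nearly all of it from Pecam1. The endothelial genes Cdh5 and Kdr were near 0 in both groups, with Cdh5 at 7.70 ± 2.26 in RH2hKO and 6.38 ± 3.85 in RH2hWT, and Kdr at 1.23 ± 1.85 in RH2hKO and 1.70 ± 2.06 in RH2hWT (SD, n = 4 each). Summed megakaryocyte markers were 1882.5 to 3501.2 in RH2hKO and 1136 to 1550.2 in RH2hWT, with 2 of the 4 tested called higher. These were Selp, at 1001 ± 151 in RH2hKO and 150.4 ± 73.1 in RH2hWT (log2 fold change 2.84; limma, adjusted p = 2.76e-05), and Vwf, at 77.4 ± 5.01 in RH2hKO and 28.7 ± 4.24 in RH2hWT (1.41; adjusted p = 0.011; SD, n = 4 each). Both genes are known from endothelium as well as from megakaryocytes. Itga2b, the most abundant marker of the megakaryocyte list, had 1306 ± 579 in RH2hKO and 1173 ± 142 in RH2hWT (SD, n = 4 each) and was not called. Pf4, a platelet chemokine gene, was at 0 to 17.3 in RH2hKO and 0 to 9.3 in RH2hWT. Summed stem and multipotent progenitor markers were 1188.4 to 1728.4 in RH2hKO and 633.8 to 939.9 in RH2hWT, with 1 of the 5 tested, Flt3, called higher. Flt3, the most abundant of this list, had 880 ± 130 in RH2hKO and 423 ± 126 in RH2hWT. Hlf, not called, had 278 ± 68.8 in RH2hKO and 273 ± 14.7 in RH2hWT (SD, n = 4 each). The part of these cell types in the rises of Eda2r, Tnfsf4 and Tnfrsf10b was not tested. Nor was that of the monocyte, dendritic, mast cell and other lists above, some of which held called markers.

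Tnfrsf4, the gene of OX40 itself, was barely detected. It had 17.1, 4.9, 17.7 and 12.5 in RH2hKO, against 14.9, 2.8, 22.5 and 9.3 in RH2hWT, with full overlap (log2 fold change 0.22, 95% confidence interval -1.15 to 1.59; limma, adjusted p = 0.925).

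Tnfrsf10b (ENSMUSG00000022074), on the plus strand of chromosome 14 from 69767472 to 69784411, encodes the mouse TRAIL receptor with a death domain. Its normalised counts were 355.6, 260.8, 318.4 and 284.9 in RH2hKO replicates 5 to 8, against 112.1, 88.8, 78.7 and 48.2 in RH2hWT replicates 1 to 4. The lowest RH2hKO library lay well above the highest RH2hWT library, and unlike Eda2r and Tnfsf4 the gene was expressed in every control. The mean was 305 ± 41.2 in RH2hKO and 82.0 ± 26.5 in RH2hWT (SD, n = 4 each), a ratio of means of 3.72. The fold change fitted on the log2 scale was 3.83, with a 95% confidence interval from 2.70 to 5.41 (log2 fold change 1.94 ± 0.23, SE; limma, adjusted p = 0.000325). Over 19 alternatives the log2 fold change lay between 1.71 and 2.13, with adjusted p at most 0.0165.

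Its ligand TRAIL, encoded by Tnfsf10, was expressed in every library and was not called. Tnfsf10 had 419.5, 489.6, 415.1 and 738.2 in RH2hKO, against 457, 437.3, 467.2 and 402.1 in RH2hWT (log2 fold change 0.19, 95% confidence interval -0.17 to 0.54; limma, adjusted p = 0.683). RH2hKO replicate 8 was the high library, and without it the log2 fold change was -0.000188.

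In normalised counts, RH2hKO replicate 5 was the highest and replicate 6 the lowest of its group for each of the 3 called genes. Replicates 7 and 8 lay between and were close, with Tnfsf4 at 235.6 and 233.9 and Eda2r at 307.6 and 287.8. How many of all genes share this order was not counted. As a description of likeness, the log2 profiles of the tested genes were set against theirs over the 8 libraries, each centred on its RH2hWT mean. Genes with predicted-gene or clone names were left out of this comparison. Tnfsf4 was the gene nearest to Eda2r, with a root mean square difference of 0.30 on the log2 scale, and Eda2r was the nearest to Tnfsf4. Zfp365, a zinc finger protein gene, came next for both, at 0.85 from Eda2r and 0.74 from Tnfsf4, and the ephrin receptor gene Epha2 followed, at 1.27 from Eda2r and 1.19 from Tnfsf4. Nearest to Tnfrsf10b were Pmaip1, the gene of the pro-apoptotic protein Noxa, at 0.32, Sesn2, a stress-response regulator of mTORC1, at 0.34, and Ptp4a3, a phosphatase gene, at 0.36. This measure follows the size of the difference between the groups, so that genes with a similar fold change come out near each other.

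**Figure D2:**
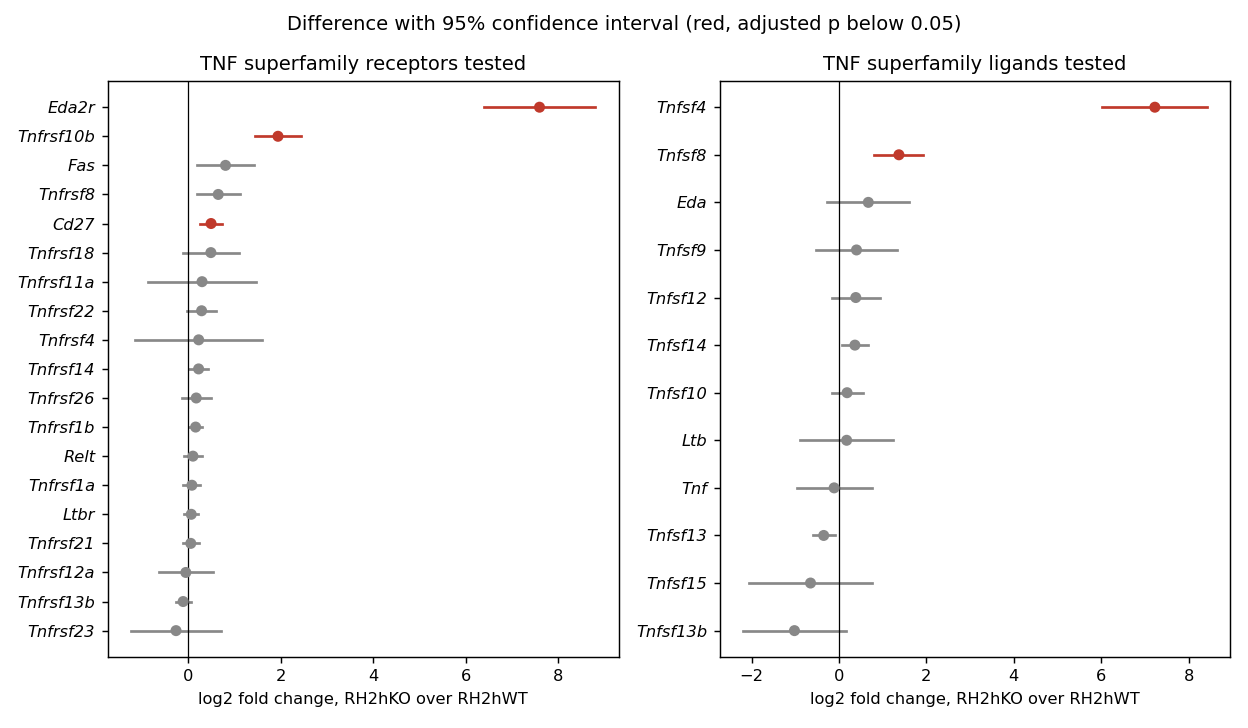
Log2 fold change of RH2hKO over RH2hWT (horizontal axis) with its 95% confidence interval for the 19 receptors (left panel) and 12 ligands (right panel) of the TNF superfamily that were tested; red marks genes with adjusted p below 0.05. Eda2r at 7.59 and Tnfsf4 at 7.23 lie far from the rest, followed by Tnfrsf10b at 1.94 and Tnfsf8 at 1.37.

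Fas (ENSMUSG00000024778), the archetypal death receptor, lies on the plus strand of chromosome 19 from 34290666 to 34327772. Its normalised counts were 82.8, 82.7, 52.3 and 117.4 in RH2hKO replicates 5 to 8, against 43.1, 63.3, 38.7 and 41.7 in RH2hWT replicates 1 to 4. Of the 4 RH2hKO libraries 3 lay above all controls, but RH2hKO replicate 7 lay below RH2hWT replicate 2, so the groups overlapped. The mean was 83.8 ± 26.6 in RH2hKO and 46.7 ± 11.2 in RH2hWT (SD, n = 4 each), with a log2 fold change of 0.80 and a 95% confidence interval from 0.18 to 1.42. The unadjusted p was 0.0148 and the adjusted p 0.236 (limma), and the adjusted p stayed between 0.128 and 0.505 over 19 alternatives. The ligand gene Fasl was not analysed here.

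Tnfrsf1a (ENSMUSG00000030341) encodes TNF receptor 1, the death domain receptor of TNF, and lies on the plus strand of chromosome 6 from 125349362 to 125362484. It had 5781, 5604, 5651 and 4687 normalised counts in RH2hKO, against 5628, 5333, 4596 and 5069 in RH2hWT. The groups overlapped, with RH2hKO replicate 8 low in its group (log2 fold change 0.07, 95% confidence interval -0.11 to 0.26; limma, adjusted p = 0.773). Tnfrsf1b (ENSMUSG00000028599) encodes TNF receptor 2, which has no death domain, and lies on the minus strand of chromosome 4 from 145213463 to 145246870. It had 4921, 4685, 4913 and 4500 in RH2hKO, against 4418, 4290, 4074 and 4301 in RH2hWT. Every RH2hKO library was above every RH2hWT library, by a small margin. The log2 fold change of Tnfrsf1b was 0.15 with a 95% confidence interval from 0.01 to 0.30, an unadjusted p of 0.034 and an adjusted p of 0.326 (limma). For both TNF receptor genes a rise of more than 1.23-fold lies outside the 95% confidence interval.

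Tnf, the ligand gene of both receptors, was not called. It had 256.6, 286.1, 263.2 and 57.7 in RH2hKO, against 232, 243.7, 162.4 and 165.9 in RH2hWT, and RH2hKO replicate 8 lay below every other library. The direction rested on that library: the log2 fold change was -0.11 over all libraries (95% confidence interval -0.97 to 0.75; limma, adjusted p = 0.941) and 0.44 without RH2hKO replicate 8, while the means were 215.9 ± 106 in RH2hKO and 201 ± 42.8 in RH2hWT (SD, n = 4 each). Lta, the gene of another ligand of the TNF receptors, was not analysed here.

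Tnfrsf22 and Tnfrsf23 encode mouse decoy receptors for TRAIL and lie side by side on the minus strand of chromosome 7, from 143634806 to 143649661 (ENSMUSG00000010751) and from 143665809 to 143685872 (ENSMUSG00000037613). They share stretches of coding sequence, which matters for counts made from reads of 50 bases. The longest run of bases common to the coding sequences of Tnfrsf22-201 and Tnfrsf23-202 (GENCODE M21, mm10, 5′ to 3′ in the sense direction) has 102 bases. It spans coding positions 421 to 522 of 594 in Tnfrsf22-201 and 391 to 492 of 528 in Tnfrsf23-202. It is shown because a read inside it, taken alone, fits both genes. No letter is capitalised.
Tnfrsf22 and Tnfrsf23: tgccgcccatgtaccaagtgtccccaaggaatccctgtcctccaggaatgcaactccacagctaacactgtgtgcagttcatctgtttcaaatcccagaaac
Of all windows of 50 bases in their transcripts, 719 were common to both genes, 17.3% of those of Tnfrsf22 and 18.0% of those of Tnfrsf23. With all other genes counted, 27.4% of the windows of Tnfrsf22 were shared with at least 1 of 22 genes, and 19.3% of those of Tnfrsf23 with at least 1 of 2. Their separate levels are therefore uncertain. The windows stand for single reads, while the libraries were read as paired ends, and what the mate of a read adds was not measured. Both genes also overlap E230032D23Rik on the opposite strand, which had a mean of 89.4 in RH2hKO and 102 in RH2hWT, and the sources used here do not give the strand setting of the counting.

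Tnfrsf22 had 226.9, 201.5, 255.3 and 216.5 in RH2hKO replicates 5 to 8, against 195.2, 191.7, 166.1 and 184.4 in RH2hWT replicates 1 to 4. The groups did not overlap, but the gap between the nearest libraries was small beside their spread. The log2 fold change was 0.28 with a 95% confidence interval from -0.03 to 0.60 (limma, adjusted p = 0.436). Tnfrsf23 had 27.9, 14.6, 24.6 and 29.8 in RH2hKO, against 16.5, 45.3, 16.2 and 52.8 in RH2hWT. RH2hKO replicate 6 lay below every RH2hWT library, and the other RH2hKO libraries lay within the RH2hWT range. The RH2hWT libraries fell into a low pair, replicates 1 and 3, and a high pair, replicates 2 and 4. Tnfrsf23 had a log2 fold change of -0.27 with a 95% confidence interval from -1.24 to 0.70 (limma, adjusted p = 0.859), so that at this depth changes of either sign are within the interval. Transcripts of Eda2r, Tnfsf4, Fas, Tnfrsf1a and Tnfrsf1b shared no window of 50 bases with another gene, and those of Tnfrsf10b shared 6.21% of theirs.

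Levels of different genes were compared after division by exon length, as normalised counts per kilobase. Among the 23 receptors in the table, Tnfrsf1a ranked first and Tnfrsf1b second in both groups, at 2096 and 1245 per kilobase in RH2hKO and 1990 and 1119 in RH2hWT. Eda2r ranked 12 in RH2hKO, at 52.6 per kilobase, and last, at 23, in RH2hWT, at 0.199. In RH2hKO it thus stood beside Tnfrsf22 (53.4 per kilobase) and Tnfrsf10b (55.9), and these neighbours in the order did not differ beyond the spread of their libraries. Tnfrsf10b ranked 10 in RH2hKO and 15 in RH2hWT, at 15.0 per kilobase, and Fas ranked 15 in RH2hKO, at 40.6, and 13 in RH2hWT, at 22.6. Tnfsf4 ranked 4 of 12 ligands in RH2hKO, at 126 per kilobase, next to Tnf at 132, and last, at 12, in RH2hWT, at 0.638.

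**Figure D3:**
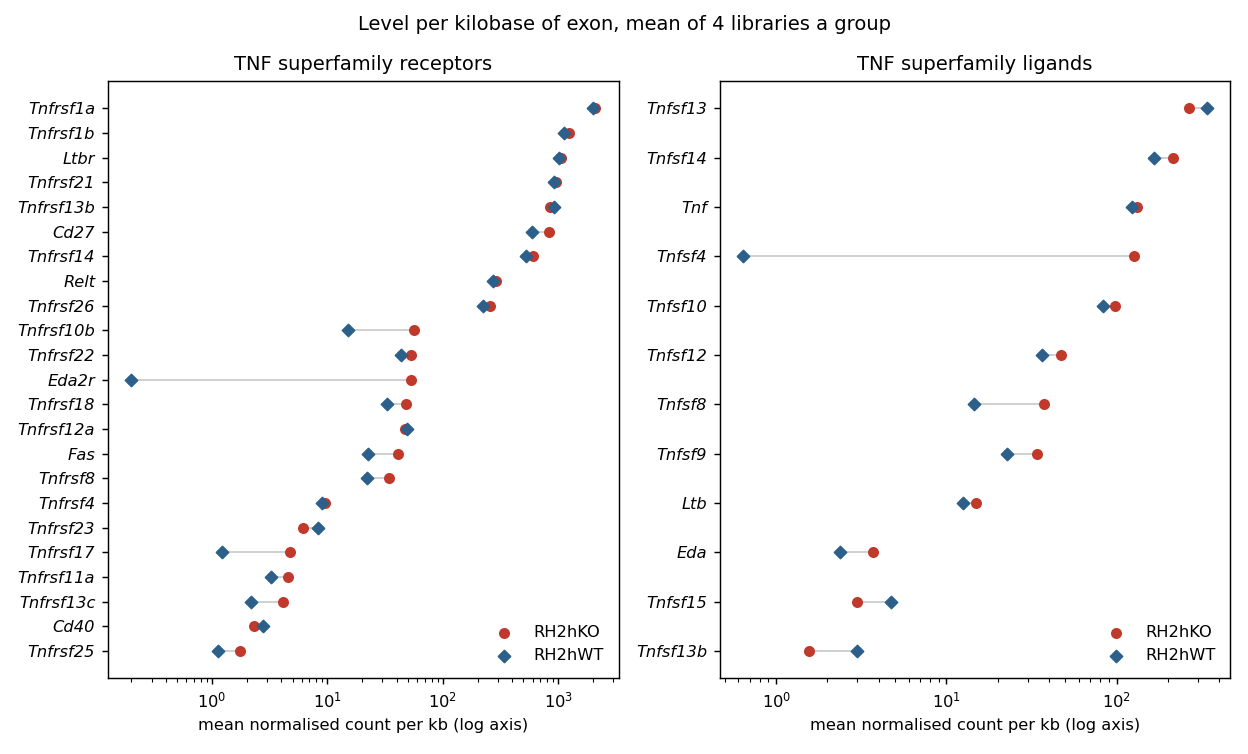
Mean normalised count per kilobase of exon (horizontal, log axis) of the 23 receptors (left panel) and 12 ligands (right panel) of the TNF superfamily in the table, with RH2hKO as red circles and RH2hWT as blue diamonds joined by a grey line. Eda2r (52.6 in RH2hKO and 0.199 in RH2hWT) and Tnfsf4 (126 in RH2hKO and 0.638 in RH2hWT) have the longest lines, while the abundant Tnfrsf1a and Tnfrsf1b nearly coincide.

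Most other genes of the superfamily were not called. Of 12 ligands tested, 2 rose, Tnfsf4 and Tnfsf8, and none fell, where 1.19% of all genes rose and 0.21% fell (median log2 fold change 0.28). Tnfsf8, the ligand of CD30, had 199, 117.8, 133.1 and 124.2 in RH2hKO, against 54.1, 66.1, 35 and 65.8 in RH2hWT, with no overlap (log2 fold change 1.37 ± 0.26, SE; limma, adjusted p = 0.0155). The call was lost without RH2hKO replicate 5 (adjusted p = 0.0653), without RH2hKO replicate 7 (0.0528) and with no intensity trend (0.0736). Tnfsf13, the gene of the B cell factor APRIL, was lower in every RH2hKO library, at 437 ± 23.4 in RH2hKO and 558 ± 62.7 in RH2hWT (SD, n = 4 each), but was not called (log2 fold change -0.35; limma, adjusted p = 0.196). Limma did call it lower with array weights (adjusted p = 0.0441). It was also called lower with RH2hWT replicate 1 and RH2hKO replicate 8 left out together (limma, adjusted p = 0.0445). It overlaps Tnfsfm13, a readthrough gene, and the antisense gene Tnfsf13os, so its level is uncertain.

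Of 19 receptors tested, 3 rose, Eda2r, Tnfrsf10b and Cd27, and none fell, beside the same 1.19% and 0.21% of all genes (median log2 fold change 0.22). Cd27, a costimulatory receptor that also marks multipotent progenitors, had 1930 ± 111 in RH2hKO and 1386 ± 215 in RH2hWT (SD, n = 4 each; log2 fold change 0.49; limma, adjusted p = 0.0378). It overlaps Vamp1 on the opposite strand (482 in RH2hKO and 466 in RH2hWT), and its call was lost in 7 of the 19 alternatives, with an adjusted p up to 0.187, which leaves 2 receptors called. Receptors tested whose groups did not overlap numbered 6, all with RH2hKO above, and among the ligands 3 lay above and 1 below, where 3.99% of all genes lay above and 3.42% below.

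Genes of the signalling steps below the receptors were not called by limma. Of 18 genes of death receptor signalling tested, none was called, and 3 had an unadjusted p below 0.05, close to the 13.2% of all genes that did. Their median log2 fold change was -0.03. The most abundant were Apaf1, the scaffold of the apoptosome, at 4742 ± 363 in RH2hKO and 4497 ± 292 in RH2hWT, Casp8, the initiator caspase of death receptors, at 4333 ± 162 in RH2hKO and 4503 ± 75.8 in RH2hWT, and Bid, a substrate of caspase-8, at 4283 ± 251 in RH2hKO and 4332 ± 205 in RH2hWT (SD, n = 4 each). edgeR and DESeq2 called none of the 18 either. Of 20 genes of TRAF and NF-kB signalling, limma called none and edgeR none, and 3 had an unadjusted p below 0.05, again close to the share of all genes. DESeq2 called 2 of the 20, and 3.35% of all genes. The median log2 fold change was 0.04. The most abundant of them were Rbck1, a subunit of the linear ubiquitin ligase, at 5620 ± 182 in RH2hKO and 4887 ± 299 in RH2hWT, Tab2, an adaptor of the kinase TAK1, at 4626 ± 188 in RH2hKO and 4646 ± 252 in RH2hWT, and the kinase gene Ikbkb at 4078 ± 156 in RH2hKO and 3810 ± 159 in RH2hWT (SD, n = 4 each).

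Of 16 NF-kB response genes tested, 1 rose and none fell, where 1.19% of all genes rose and 0.21% fell (median log2 fold change 0.19). That gene was Icam1, an adhesion molecule for leukocytes, with 1162, 1043, 982.9 and 1225 in RH2hKO, against 746.2, 636.6, 558.4 and 553.1 in RH2hWT, and the groups did not overlap (log2 fold change 0.83 ± 0.12, SE; limma, adjusted p = 0.00145). The most abundant, Nfkb1, had 7570 ± 447 in RH2hKO and 7639 ± 603 in RH2hWT, and Tnip1, an inhibitor of NF-kB, had 3113 ± 151 in RH2hKO and 3239 ± 175 in RH2hWT (SD, n = 4 each), and neither was called. Without RH2hKO replicate 8 the number of NF-kB response genes called was 4, while the calls over all genes went from 234 to 569.

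**Figure D4:**
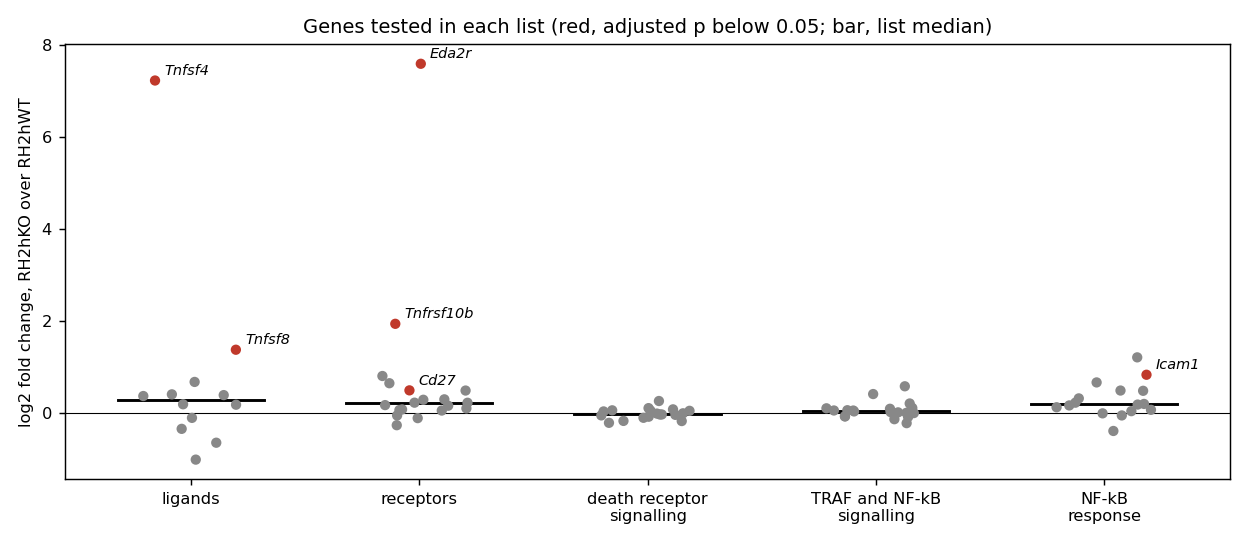
Log2 fold change of RH2hKO over RH2hWT (vertical axis) for the genes tested in each of 5 lists (horizontal axis; points are genes, black bars list medians, red points adjusted p below 0.05). Rises past the threshold lie among the ligands and receptors and at Icam1, while the death receptor and TRAF lists stay between -0.22 and 0.58.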

How the data were processed

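Per the labels' protocols, granulocyte-macrophage progenitors were sorted from bone marrow depleted of lineage-positive cells, by Kit, CD16/32 and CD34, from separate mice, and strand-specific libraries of polyadenylated RNA were read as paired ends of 50 bases. The submitters' processing notes name the aligner GSNAP, the counter featureCounts 2.0.1, the build mm10, FastQC, R 3.5.1 and DESeq2 1.30.1. The sources used here do not give the annotation release or the strand setting. The deposited signal values cover 23131 genes and are normalised counts: per gene and library, the authors scaled the number of reads by a library factor, to 1 decimal. Within 0.051 normalised counts, 99.997% of the 169267 values above 0 were whole multiples of what 1 read is worth, 5 were not, and whole reads and depth were recovered from them.

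Genes whose mean reached 10 were tested, 16688 in all, by limma 3.58.1 (R 4.3.3) with a trend on intensity. The scale was log2(normalised count + 1), and a call needed a Benjamini-Hochberg adjusted p below 0.05 over all of them. Fold changes on this scale understate the change of low genes. It called 234 genes, and the quasi-likelihood test of edgeR 4.0.16 on the recovered reads called 241. The tests were also run on simulated counts with 200 changed genes.

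Named were the 8 members, their ligand or receptor partners, Rnaseh2b, in each of 5 pathway lists the genes called or, with fewer than 3 called, the most abundant up to 3, and the 3 genes with profiles most like each called member. Predicted-gene and clone names were left out of the profiles compared. Genes named outside this rule (Edaradd, cell type markers, overlapping genes) were chosen after their values were seen. The members and lists were chosen with earlier results of these data known. As alternatives the pseudocount was set to 0.5 or 5, the filter was dropped or raised to 50, libraries were scaled to equal totals or quantile normalised, and limma was run with array weights or without the trend. edgeR and DESeq2 1.42.0 were run on the recovered reads. Each library was left out, and RH2hWT replicate 1 and RH2hKO replicate 8 were left out together. Windows of 50 bases were compared among GENCODE M21 transcripts, and promoter windows came from RefSeq (GRCm38.p6).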

Additional observations from a re-analysis of the deposited data

Results flagged for a closer look

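In 60 groups of 4 libraries (30 named genes in each genotype), 6 had a library set apart from the other 3 by more than Dixon's 95% critical value for the gap over the range, where chance flags about 1 in 20 groups. Eda2r and Tnfsf4 were each flagged for RH2hWT replicate 1, at 4.7 normalised counts against 0 in the other 3 controls; with 3 values tied at 0 any reads in the fourth library give such a flag, so the chance rate does not apply to these. Tnfrsf1a was flagged for RH2hKO replicate 8, at 4686.9 against 5604.2 to 5780.7 in the other RH2hKO libraries. Tnf was flagged for RH2hKO replicate 8, at 57.7 against 256.6 to 286.1. Pmaip1 was flagged for RH2hWT replicate 3, at 211.1 against 259.4 to 268.1, and Ptp4a3 for RH2hWT replicate 1, at 2461.2 against 1874 to 1963.8.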

How the results depend on the processing

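The 3 calls among the 8 TNF superfamily genes held under all 19 alternatives, and the receptor list kept 2 to 3 calls. The number of genes called over the whole table was 104 with no intensity trend, 1001 with array weights, 558 with DESeq2 and 1440 with RH2hWT replicate 1 and RH2hKO replicate 8 left out together, and 135 to 569 with 1 library left out, the last without RH2hKO replicate 8 (371 without RH2hWT replicate 1). Ligands called numbered 1 with no trend, 3 with array weights, 3 with both libraries left out and 1 to 2 with 1 library left out. Where 3 ligands were called, 1 of them, Tnfsf13, was lower in RH2hKO. Death receptor signalling had 1 call with array weights, 1 with both left out and 0 to 1 with 1 left out. TRAF and NF-kB signalling had 3 calls with array weights, 2 with DESeq2, 2 with both left out and 0 to 1 with 1 left out. NF-kB response genes had 2 calls with array weights, 4 with both left out and 1 to 4 with 1 left out. The cause of these moves was not tested.

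Among single genes, 522 values kept direction and side of the threshold, 4 became called, 10 lost a call and 31 turned direction, none of these called. With both libraries left out, the log2 fold change was 8.23 for Eda2r, 7.85 for Tnfsf4 and 2.13 for Tnfrsf10b. Tnf turned to 0.258 with array weights, 0.113 with edgeR, 0.109 with DESeq2, 0.517 with both left out and -0.32 to 0.44 with 1 left out. Tnfrsf23 reached 0.021 (from -0.53), Tnfrsf4 -0.29 (to 0.59) and Tnfsf10 -0.000188 (to 0.28) with 1 left out. Bid turned to 0.0186 with equal totals, 0.00504 with array weights, 0.0034 with both left out and -0.0552 to 0.00602 with 1 left out. Tab2 turned to 0.0299 with equal totals, 0.0130 with quantile normalisation, 0.00382 with edgeR, 0.0288 with both left out and -0.0400 to 0.0227 with 1 left out. Nfkb1 turned to 0.0219 with quantile normalisation, 0.0241 with equal totals, 0.0137 with array weights, 0.0456 with both left out and -0.0565 to 0.0292 with 1 left out. Tnfrsf23 has no value with a mean of at least 50. No paired analysis was run, because the groups share no replicate numbers and the sample labels name no litter. Litter was therefore not modelled, although the controls were littermates. Depth limits Eda2r and Tnfsf4 in RH2hWT, where 6 reads of each in 1 library set the fold, and Tnfrsf23, with 102 reads in RH2hKO and 139 in RH2hWT.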
